A study of Mus musculus with 12 samples.

Results

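The Myc, Max and Mxd network is a family of transcription factors of the basic helix-loop-helix leucine zipper type, measured here as RNA in natural killer (NK) cells, lymphocytes that kill target cells and secrete cytokines. Its 9 members were taken by gene symbol, as the rows named Myc, Mycn, Max, Mxd1, Mxd3, Mxd4, Mxi1, Mnt and Mlx among 55487 features. All 9 were among the 12364 genes tested, which had a log2 CPM (reads scaled to a common library total, on a log2 scale) above 0 in at least 4 samples.

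The 12 samples were NK cells of mouse strain B6.129S4-Ifngtm3.1Lky/J with the genotype given as mut/mut, an allele in which the interferon gamma gene Ifng also drives yellow fluorescent protein (YFP). The series describes the cells as primed with the cytokine IL-15, and every title carries "HD IL-15" without spelling out HD, so all groups share the reporter allele and the IL-15. There were 3 groups of 4: unstimulated cells, and cells given anti-NK1.1, an antibody to an activating receptor, for 6 h and then sorted by the absence (YFP-) or presence (YFP+) of the reporter signal. For the unstimulated cells no time is given, and their titles name no YFP fraction. Time in culture and sorting therefore cannot be told apart from stimulation in comparisons with them. Each group holds 1 sample with each of the replicate labels f2, m2, m3 and m4, where f2 is titled as female and the others as male, and the labels used here give no age.

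Myc and Mycn activate transcription only when paired with Max, and the pair binds a short DNA element called the E-box. Mxd1, Mxd3, Mxd4, Mxi1 and Mnt compete for Max and, bound to the same element, recruit Sin3 and histone deacetylases that silence genes, so they are known as the antagonists of Myc. Mlx is a relative of Max that pairs with some of the antagonists and with the nutrient-sensing factors Mlxip and Mlxipl. In lymphocytes Myc is known for the growth in cell mass that follows activation, and the Mxd proteins for resting and differentiated cells.

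The E-box CACGTG, which reads the same on both strands, was searched in RefSeq promoter windows of GRCm38.p6 that run from 250 bases before to 50 bases after a gene's start. It was present in 4 of the 8 members with a window, namely Max, Mxd4, Mnt and Mlx, beside 8.09% of all 27025 genes with a window and 12.1% of the 8705 of them that were tested. The windows of Mycn, Mxd1, Mxd3 and Mxi1 do not hold these letters. The 4 stretches of 60 bases are shown because they are where members of the network carry the network's own element; capitals mark it, and each is written 5′ to 3′ on the strand of its gene.
Max, chr12:76962219-76962278, minus strand: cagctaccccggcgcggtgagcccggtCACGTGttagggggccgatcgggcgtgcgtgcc
Mxd4, chr5:34187897-34187956, minus strand: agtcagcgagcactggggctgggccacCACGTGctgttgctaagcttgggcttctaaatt
Mnt, chr11:74830774-74830833, plus strand: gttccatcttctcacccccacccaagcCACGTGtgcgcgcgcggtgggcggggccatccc
Mlx, chr11:101087223-101087282, plus strand: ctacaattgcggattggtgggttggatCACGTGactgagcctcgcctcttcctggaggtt
The element begins 3 bases before the start of Max, 40 before that of Mlx, 123 before that of Mnt and 219 before that of Mxd4. A match is a description of these letters and not of binding. The 4 members with the element moved in different ways in the results that follow: Mxd4 and Mnt were lower in YFP+ than in unstimulated samples, Mlx was higher and Max was not called.

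Library totals ran from 32.1 to 54.2 M reads (M, mega), so 3 reads, taken here as the floor, amounted to 0.0553 to 0.0933 CPM. Features resembling ribosomal RNA took 27.4 to 35.3% of reads in unstimulated libraries, 15.9 to 30.3% in YFP- libraries and 13.7 to 29.8% in YFP+ libraries. The median log2 difference over all genes tested was 0.14 and -0.03 for YFP- and YFP+ samples against unstimulated ones, and -0.19 between YFP+ and YFP-. Leaving the rRNA-like features out of the totals moved these medians to -0.05, -0.21 and -0.20, and trimmed-mean scaling moved them to 0.11, 0.10 and -0.04. All 8 NK markers were tested and summed to 10676 to 13386 CPM in unstimulated, 7502 to 10174 CPM in YFP- and 7157 to 11418 CPM in YFP+ libraries. In YFP+ against unstimulated samples 2 of them, Klrk1 and Tbx21, were called higher and 5 lower (27.5% and 33.3% of all genes). Most of the sum was Gzma and Prf1. Gzma was at 8603, 4483 and 4412 CPM and Klrb1c at 308, 75.3 and 6.50 CPM on average in unstimulated, YFP- and YFP+ samples. The 8 T cell markers summed to 198 to 283, 293 to 362 and 346 to 409 CPM in that order, with Cd4, Cd8a and Cd8b1 at no more than 7 reads in any library and Cd3e at no more than 66. Most of that sum was Trbc2, at 156, 252 and 291 CPM on average, and Trac was at 7.43, 34.3 and 48.4 CPM. Both were called higher in each stimulated group than in unstimulated samples. Cd3g was at 47.9, 32.5 and 20.6 CPM and Cd3d at 17.8, 15.7 and 10.4, both called lower in YFP+ than in unstimulated samples. Of the 4 T cell markers tested, 2 were higher and 0 lower in YFP- against unstimulated samples (30.2% and 20.9% of all genes). In YFP+ against unstimulated samples 2 were higher and 2 lower (27.5% and 33.3%). The 6 B cell markers summed to 131 to 189, 174 to 324 and 57.1 to 168 CPM, most of it Ighm at 150, 235 and 108 CPM on average, with Ms4a1 and Pax5 at no more than 2 reads. The 8 myeloid markers summed to 53.0 to 60.2, 27.4 to 44.4 and 14.7 to 24.1 CPM, nearly all of it Cd68, at 55.3, 34.6 and 17.8 CPM on average and called lower in all 3 comparisons, with S100a9 at 0 reads throughout, and the 6 erythroid markers summed to at most 0.326 CPM. These sums, the rRNA-like share and the sort move with the groups, and their part in the results was not tested.

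In YFP- against unstimulated samples 2 of the 9 members rose (Myc and Mlx), 5 fell (Mycn, Mxd1, Mxd3, Mxd4 and Mxi1) and 2 were not called (Max and Mnt). A call is a Benjamini-Hochberg adjusted p under 0.05 in limma over all genes tested, and by that rule 30.2% of genes were higher and 20.9% lower in this comparison. In YFP+ against unstimulated samples the same 2 members rose, 6 fell with Mnt added, and Max was not called, against 27.5% of genes higher and 33.3% lower. In YFP+ against YFP- samples 0 members rose and 5 fell (Mxd1, Mxd3, Mxd4, Mxi1 and Mnt), against 3.28% of genes higher and 18.5% lower. The balance of calls over all genes depended on the scaling: in YFP+ against YFP- samples 405 genes were higher and 2286 lower as deposited, but 1016 and 1675 under trimmed-mean scaling and 1163 and 1430 under quantile normalization. In YFP- against unstimulated samples 3735 were higher and 2586 lower as deposited, but 3315 and 3410 under quantile normalization and 3072 and 3444 without the rRNA-like features. In YFP+ against unstimulated samples 3400 were higher and 4122 lower as deposited, but 4103 and 3759 under trimmed-mean scaling and 4060 and 3792 under quantile normalization. The 3 comparisons share samples, so they are not independent of each other. Apart from the sex in the titles, with f2 the only female label, the labels do not say whether samples are separate mice. The p-values therefore measure only the spread between these samples, of which an unknown part may be technical. In bulk samples, fewer cells with a transcript and less of it per cell cannot be told apart.

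**Figure D1:**
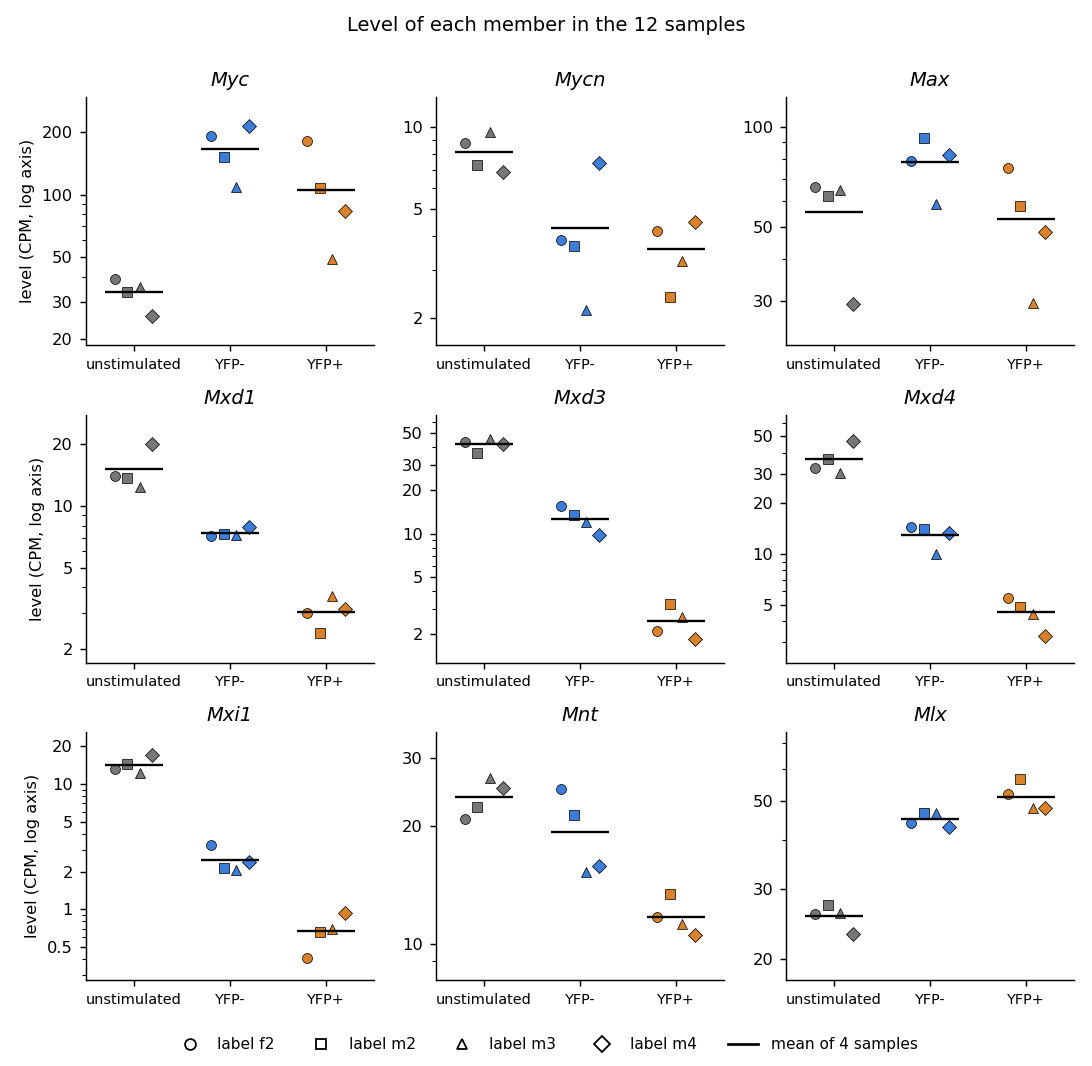
Level of each member in every sample, in CPM on a log axis that differs between panels. Points are samples, with the symbol giving the replicate label, and bars are means of 4. Mxd1, Mxd3, Mxd4 and Mxi1 step down from unstimulated to YFP- to YFP+ with no overlap between groups, whereas Max overlaps throughout.

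Myc (ENSMUSG00000022346; GRCm38 chromosome 15, 61985391 to 61990374, plus strand) was measured first, as the activator of the network. Its level in unstimulated samples was 38.9 CPM in f2, 33.8 in m2, 35.6 in m3 and 25.9 in m4. In YFP- samples it was 191, 152, 108 and 214 CPM in the same order, and in YFP+ samples 182, 108, 48.5 and 83.1. Every stimulated sample lay above every unstimulated one, and the YFP- and YFP+ ranges overlapped. The log2 difference was 2.28 with an SE of 0.33 for YFP- against unstimulated (4.85-fold; limma adjusted p = 7.4e-05) and 1.51 for YFP+ against unstimulated (2.84-fold; limma adjusted p = 0.0012). The YFP+ samples spread more widely than the others, with an SD of 0.79 in log2 CPM against 0.25 in unstimulated samples, and the lowest of them, m3, was the nearest of the 8 stimulated samples to the unstimulated range. Between YFP+ and YFP- the log2 difference was -0.77 with a 95% interval from -1.47 to -0.07, which lies below 0 before adjustment but was not called after it (limma adjusted p = 0.111).

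Mycn (ENSMUSG00000037169; chromosome 12, 12936093 to 12941914, minus strand), the paralog of Myc best known from neural tissue, changed in the opposite direction to Myc. Levels were 8.79, 7.26, 9.59 and 6.87 CPM in unstimulated samples, 3.86, 3.67, 2.14 and 7.40 in YFP-, and 4.15, 2.38, 3.23 and 4.51 in YFP+. All YFP+ samples lay below all unstimulated ones, whereas the YFP- m4 sample lay inside the unstimulated range. The fall was 1.21 on the log2 scale in YFP+ (limma adjusted p = 0.00434) and 1.05 in YFP- samples (limma adjusted p = 0.0131). The call in YFP- samples was lost without label f2 (adjusted p = 0.064), without label m3 (log2 difference -0.69, adjusted p = 0.0969) and without the filter on low values (adjusted p = 0.103). Between YFP+ and YFP- the log2 difference of -0.16 was not called (limma adjusted p = 0.754), and its sign turned under quantile normalization (0.18) and without label m4 (0.02).

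Max (ENSMUSG00000059436; chromosome 12, 76937269 to 76962201, minus strand), the shared partner, was not called in any comparison. Levels were 66.1, 62.0, 64.6 and 29.2 CPM in unstimulated samples, 79.3, 93.1, 58.8 and 82.7 in YFP-, and 75.2, 57.9, 29.6 and 48.4 in YFP+. The groups overlapped in every comparison, with the unstimulated m4 and the YFP+ m3 samples far below the rest of their groups. Log2 differences were 0.55 for YFP- against unstimulated (95% interval -0.09 to 1.2; limma adjusted p = 0.138), -0.08 for YFP+ against unstimulated (-0.72 to 0.57; 0.84) and -0.63 for YFP+ against YFP- (-1.28 to 0.01; 0.153). These intervals leave room for a change of 2-fold in either comparison that involves YFP- samples. Without label m3 the first of them was called (0.78, limma adjusted p = 0.0409), and the sign of the YFP+ against unstimulated difference turned without m3 (0.27) and under trimmed-mean scaling and voom weights (both 0.05).

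Myc and Max, the pair that binds DNA together, ranked the samples in the same order within unstimulated and within YFP+ samples. Both ran from m4 up through m2 and m3 to f2 in unstimulated samples, and from m3 up through m4 and m2 to f2 in YFP+ samples. In YFP- samples both were lowest in m3, but Myc then ran up through m2 and f2 to m4 and Max through f2 and m4 to m2. The lowest sample of each group was also the one with the highest rRNA-like share of that group, and of the 12364 genes tested 39.8% were lowest in unstimulated m4, 55.0% in YFP- m3 and 40.8% in YFP+ m3. Only Myc and Max of the 9 members, and 2221 genes (18.0%) of all tested, were lowest there in all 3 groups. The part of the rRNA-like share in this was not tested. In YFP+ samples the SD of Myc in log2 CPM was 0.79 as deposited. It was 0.67 with the rRNA-like features left out of the totals and 0.83 under trimmed-mean scaling. The SD of Max in unstimulated samples was 0.57, 0.51 and 0.54 in the same order.

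The antagonists Mxd1, Mxd3, Mxd4 and Mxi1 fell in both stimulated groups, and further in YFP+ than in YFP- samples. Each of these 12 differences was called and kept its direction and call under all 13 alternative settings. The groups did not overlap in any of them, but no share of genes without overlap among all genes tested is given here. Mxd3 and Mxi1 had the largest falls, of 17.2-fold and 21.5-fold in YFP+ against unstimulated samples. This is the step-wise pattern in the plot of levels by sample.

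Mxd3 (ENSMUSG00000021485; chromosome 13, 55325168 to 55329823, minus strand) is the Mxd protein otherwise described in cycling cells. It was at 43.6, 36.5, 45.8 and 41.7 CPM in unstimulated samples, 15.5, 13.5, 12.1 and 9.81 in YFP-, and 2.13, 3.26, 2.65 and 1.87 in YFP+. The 3 groups were far apart, with no sample near the range of another group. The log2 difference was -1.73 for YFP- against unstimulated (limma adjusted p = 8.4e-06) and -4.10 for YFP+ against unstimulated (limma adjusted p = 2.0e-09). Between YFP+ and YFP- it was -2.37 with an SE of 0.19 (5.16-fold; limma adjusted p = 5.1e-06), which placed Mxd3 at rank 23 by p among the 12364 genes tested. Its exons share 105 bases with Prelid1 on the opposite strand, and no use of strand in counting is stated in the sources used here.

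Mxi1 (ENSMUSG00000025025; chromosome 19, 53310518 to 53375810, plus strand), also known as Mxd2, was at 13.2, 14.4, 12.3 and 17.2 CPM in unstimulated samples. It was at 3.25, 2.15, 2.05 and 2.41 CPM in YFP- and 0.409, 0.664, 0.691 and 0.933 in YFP+ samples. The YFP+ levels rest on 20 to 36 reads per library. The log2 difference was -2.54 for YFP- against unstimulated (limma adjusted p = 3.1e-06), -4.43 for YFP+ against unstimulated (9.2e-09) and -1.88 between YFP+ and YFP- (1.6e-04). With a pseudocount of 1 CPM the last of these was -1.05, still called. Mxi1 shares 194 exon bases with Gm10197 on the opposite strand.

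Mxd4 (ENSMUSG00000037235; chromosome 5, 34173883 to 34187720, minus strand) was at 32.5, 36.6, 30.4 and 47.0 CPM in unstimulated samples. It was at 14.4, 14.1, 10.0 and 13.3 CPM in YFP- and 5.48, 4.87, 4.39 and 3.24 in YFP+ samples. Its fall was 1.49 on the log2 scale in YFP- (limma adjusted p = 3.5e-05) and 3.03 in YFP+ (2.9e-08) against unstimulated samples, and 1.54 in YFP+ against YFP- (1.3e-04). Of its 50-base stretches 5.40% also occur in other genes. How reads from them were counted is not stated in the sources used here, so their effect on its level is unknown. Mxd1 (ENSMUSG00000001156; chromosome 6, 86647042 to 86669161, minus strand), a founding member of the Mxd family known to rise as cells differentiate, was at 14.0, 13.7, 12.4 and 20.0 CPM in unstimulated samples. It was within 7.16 to 7.89 CPM in all 4 YFP- samples and at 2.40 to 3.65 in YFP+. Its log2 differences were -0.998 (limma adjusted p = 3.8e-04), -2.29 (1.3e-07) and -1.29 (2.1e-04) in the same order of comparisons.

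Mnt (ENSMUSG00000000282; chromosome 11, 74830920 to 74845725, plus strand), the antagonist most widely expressed across tissues, fell in YFP+ samples against both other groups and was not called between YFP- and unstimulated samples. It was at 20.9, 22.4, 26.6 and 25.1 CPM in unstimulated samples, 25.0, 21.4, 15.3 and 15.8 in YFP-, and 11.7, 13.4, 11.2 and 10.5 in YFP+. The YFP- samples were split, with f2 and m2 inside the unstimulated range and m3 and m4 below it, while every YFP+ sample was below all others. The fall in YFP+ against unstimulated samples was 1.02 on the log2 scale (limma adjusted p = 1.4e-04). In YFP- against unstimulated samples the difference of -0.32 was not called (limma adjusted p = 0.134), but it was called under quantile normalization (-0.50, 0.00791), with the rRNA-like features left out (-0.50, 0.0147) and without label f2 (-0.51, 0.0408). In YFP+ against YFP- it was -0.70 (limma adjusted p = 0.00943). That call was lost without label f2 (adjusted p = 0.0563), without label m2 (0.0523) and without the filter (0.0511), and quantile normalization reduced the difference to -0.43.

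Mlx (ENSMUSG00000017801; chromosome 11, 101087277 to 101092207, plus strand) rose in both stimulated groups and varied little between replicates. Levels were 26.1, 27.4, 26.1 and 23.2 CPM in unstimulated samples, 44.0, 46.6, 46.8 and 43.0 in YFP-, and 52.0, 56.9, 48.1 and 48.0 in YFP+. The 3 groups did not overlap, and the SD within a group was 0.06 to 0.12 in log2 CPM. The log2 difference was 0.81 for YFP- (1.76-fold; limma adjusted p = 4.4e-05) and 0.99 for YFP+ (1.99-fold; 3.4e-06) against unstimulated samples. Between YFP+ and YFP- it was 0.18 and not called (limma adjusted p = 0.259), although it was called under trimmed-mean scaling (0.33, 0.0389), voom weights (0.34, 0.0308) and quantile normalization (0.35, 0.0449). Mlx shares 385 exon bases and 15.8% of its 50-base stretches with Psmc3ip on the opposite strand. The effect of reads from these stretches on its level is unknown.

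**Figure D2:**
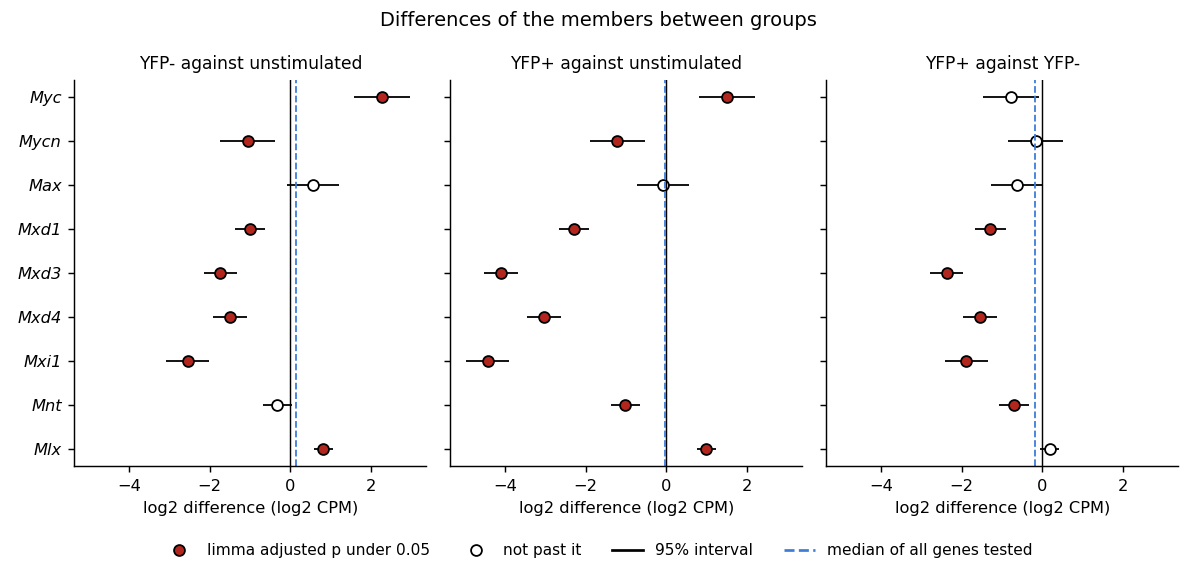
Log2 difference of each member in the 3 comparisons, with 95% intervals from limma; filled points are called, and the dashed line is the median of all genes tested. Mxd1, Mxd3, Mxd4 and Mxi1 lie left of that median in every panel, at -0.998 to -2.54, -2.29 to -4.43 and -1.29 to -2.37, whereas Max spans 0 in each.

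Relative to the median of all genes tested, the differences of Mxd1, Mxd3, Mxd4 and Mxi1 were -1.13 to -2.68 for YFP- against unstimulated and -1.10 to -2.18 for YFP+ against YFP-. That of Myc was 2.14 and that of Mlx 0.68 for YFP- against unstimulated. The YFP- samples could also be placed between the 2 other groups on the log2 scale, with 0 for the unstimulated mean and 1 for the YFP+ mean. They lay at 0.42 for Mxd3, 0.44 for Mxd1, 0.49 for Mxd4 and 0.57 for Mxi1, near the middle, and their 4 samples ranged from 0.35 to 0.63 over these 4 genes. Mnt lay at 0.31 with samples from -0.08 to 0.62. Mlx lay at 0.82, close to YFP+, and Myc at 1.51, beyond it. These positions are descriptions, since they use the same group means as the differences.

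Per length, that is as CPM per kb of merged exons, the order of the members changed between groups. In unstimulated samples Mxd3 was at 17.7 ± 1.68 CPM per kb (SD, n = 4), followed by Max at 15.4 ± 4.89, Mlx at 12.9 ± 0.897 and Myc at 12.3 ± 2.04, and each of these overlapped its neighbour. Mnt at 5.13 ± 0.562 and Mxd4 at 4.32 ± 0.871 overlapped each other below that, and Mycn, Mxd1 and Mxi1 followed at 2.47, 2.12 and 2.09 CPM per kb. In YFP- samples Myc stood apart at the top with 61.2 ± 17.1 CPM per kb, above Mlx at 22.6 ± 0.943 and Max at 21.8 ± 3.99. Mxd3 was then at 5.37 ± 1.01 and Mxi1 was last at 0.361 ± 0.0799. In YFP+ samples Myc at 38.8 ± 20.8 overlapped Mlx at 25.6 ± 2.11, and Max was at 14.7 ± 5.29. All antagonists were then under 3 CPM per kb, with Mnt the highest of them at 2.53 ± 0.264 and Mxd3 at 1.05 ± 0.261.

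Summed per length over the 9 members, the antagonists made up 42.5 ± 6.40% (SD, n = 4) of the network's RNA in unstimulated samples, 10.6 ± 1.92% of it in YFP- and 5.88 ± 1.89% of it in YFP+. Myc made up 16.5 ± 1.45%, 50.5 ± 6.46% and 43.4 ± 9.86% in that order, and Mxd3 alone 23.8%, 4.61% and 1.34%. Myc over the summed antagonists, per length, was 0.397 ± 0.082 in unstimulated samples, with the sum ahead of Myc in all 4. In YFP- samples this ratio was 4.65 in f2, 4.20 in m2, 3.65 in m3 and 7.43 in m4, and in YFP+ samples 14.7, 7.52, 3.81 and 7.59. The ratio was above 1 in all 8 stimulated samples, and the YFP- and YFP+ ranges overlapped. With no length correction the mean ratios were 0.259, 3.05 and 4.69. These are RNA levels and say nothing of how much protein of each member was present.

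**Figure D3:**
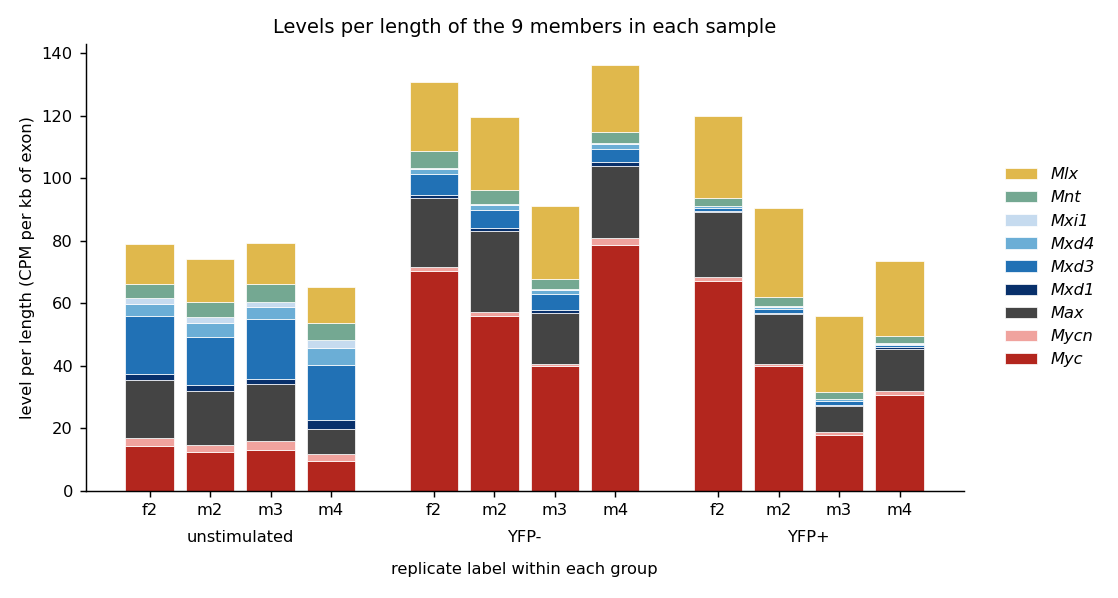
Stacked level per length of the 9 members in each sample, in CPM per kb of exon. Antagonists (the 4 blues and green) take 38.5 to 52.0% of the bar in unstimulated samples and 3.80 to 12.0% in stimulated ones, while Myc (dark red) takes 14.6 to 18.1% and 32.0 to 57.9%.

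Other factors of the network were read from a list of 4, of which 2 were tested. Mga, a large scaffold that binds Max and represses genes, was 0.63 higher in YFP- than in unstimulated samples on the log2 scale (limma adjusted p = 0.00858) and 0.44 higher in YFP+ (0.041). Its calls were lost under 3 and 6 of the 13 alternatives. Mlxip, the glucose-sensing partner of Mlx also called MondoA, was 0.54 lower in YFP- (limma adjusted p = 0.0174, lost under 4 of 13 alternatives) and 1.29 lower in YFP+ than in unstimulated samples (1.9e-05, lost under none). Mlx and Mlxip thus moved in opposite directions. Mycl had 0 to 12 reads and Mlxipl 0 to 16 reads per library, and neither was tested.

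Txnip and Arrdc4, the usual readouts of Mlx paired with Mlxip, moved in opposite directions in YFP- against unstimulated samples and were both lower in YFP+ than in YFP- samples. Txnip, an inhibitor of glucose uptake, was at 60.0 ± 8.78 CPM (SD, n = 4) in unstimulated samples, then 35.3 ± 14.1 in YFP- and 11.1 ± 1.78 in YFP+. Its log2 difference was -0.83 for YFP- against unstimulated (limma adjusted p = 0.00721, lost without label m4 and without the filter), -2.44 for YFP+ against unstimulated (6.5e-07) and -1.61 between YFP+ and YFP- (2.5e-04). Arrdc4 was at 6.72 ± 1.11, 15.6 ± 2.41 and 8.22 ± 1.5 CPM, highest in YFP- samples, with a log2 difference of 1.22 for YFP- against unstimulated (limma adjusted p = 9.8e-05) and -0.93 for YFP+ against YFP- (0.00257).

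All 8 corepressor genes through which Mxd and Mnt proteins silence DNA were tested. In YFP- against unstimulated samples 2 were higher and 1 lower (30.2% and 20.9% of all genes), with a list median of -0.02 beside 0.14 for all genes. In YFP+ against unstimulated samples 1 was higher and 3 lower (27.5% and 33.3% of all genes), and in YFP+ against YFP- samples 0 were higher and 2 lower (3.28% and 18.5%), with medians of -0.10 and -0.17 beside -0.03 and -0.19. Sin3a, the scaffold that Mxd proteins bind, was at 15.2 ± 1.24 CPM (SD, n = 4) in unstimulated samples, then 14.1 ± 1.29 in YFP- and 7.71 ± 0.427 in YFP+. It was lower in YFP+ than in YFP- samples by a log2 difference of -0.87 (limma adjusted p = 3.0e-04). Its paralog Sin3b was at 130 ± 8.31, 154 ± 10.4 and 149 ± 10.1 CPM, and its small call in YFP- against unstimulated samples (0.25, limma adjusted p = 0.0499) was lost under 12 of 13 alternatives. Hdac2, a histone deacetylase, was higher in YFP- (0.51, limma adjusted p = 0.021) and in YFP+ samples (0.91, 3.5e-04) than in unstimulated ones, the first call being lost under 5 of 13 alternatives. Sap30, a subunit that stabilises the Sin3 complex, was lower in YFP- (-1.05, limma adjusted p = 0.00271) and in YFP+ (-1.33, 2.9e-04). Ncor1, a corepressor scaffold, was lower in YFP+ than in unstimulated (-0.63, limma adjusted p = 0.00113) and YFP- samples (-0.49, 0.0195), the second call being lost under 7 of 13 alternatives. Hdac1 and Sap18 were not called in any comparison.

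Of the 10 coactivator genes that Myc binds, 5 were higher and 1 lower in YFP- against unstimulated samples (30.2% and 20.9% of all genes), with a list median of 0.52 beside 0.14 for all genes; 3 instead of 5 were higher without label m4. Ruvbl1, an ATPase of chromatin remodellers, rose by 1.29 on the log2 scale from 65.5 ± 7.42 to 161 ± 22.6 CPM (SD, n = 4; limma adjusted p = 4.7e-05). Kat2a, a histone acetyltransferase, rose by 1.0 from 11.0 ± 1.48 to 22.5 ± 6.41 CPM (limma adjusted p = 0.0013). Ep300, another acetyltransferase, was lower by a log2 difference of -0.42 (limma adjusted p = 0.045), a call lost under 4 of 13 alternatives. In YFP+ against YFP- samples 0 were higher and 3 lower (3.28% and 18.5% of all genes). Without label m2 or m4 only 1 was lower, and under trimmed-mean scaling 2 were higher and 1 lower. Among these was Ep400, a remodelling ATPase, with a log2 difference of -0.64 (limma adjusted p = 0.0303, lost under 6 of 13 alternatives).

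The 15 regulators of Myc protein turnover or activity did not share a direction: 4 were higher and 4 lower in YFP- against unstimulated samples (30.2% and 20.9% of all genes), and 2 were higher and 4 lower in YFP+ against YFP- (3.28% and 18.5%). The 4 lower became 2 without label m3 or m4 in the first comparison and 2 without f2 in the second, and the 2 higher in the second became 0 without m2 and 1 without m3 or m4. Zbtb17, the Myc partner Miz1, rose from 10.2 ± 2.0 to 34.8 ± 10.7 CPM (SD, n = 4; 1.73 on the log2 scale, limma adjusted p = 0.00325), and Usp36, a nucleolar deubiquitinase of Myc, from 11.8 ± 1.76 to 37.0 ± 6.17 (1.64, limma adjusted p = 2.4e-06). Pim2, a kinase that stabilises Myc, fell in steps from 318 ± 46.4 CPM in unstimulated to 154 ± 26.7 in YFP- and 50.8 ± 14.9 in YFP+ samples. Its log2 difference was -1.05 for YFP- against unstimulated (limma adjusted p = 0.00116) and -1.64 for YFP+ against YFP- (1.5e-04). Usp28, a deubiquitinase that opposes Fbxw7, fell likewise from 4.50 ± 0.463 to 2.71 ± 0.718 and 0.872 ± 0.356 CPM, with differences of -0.76 (limma adjusted p = 0.0345, lost under 4 of 13 alternatives) and -1.66 (9.1e-04). Pim3, a paralog of Pim2, was higher in YFP+ than in YFP- samples by 0.61 on the log2 scale (limma adjusted p = 0.022), a call lost under 5 of 13 alternatives, among them without label m2.

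The 26 genes widely described as induced by Myc are mostly for ribosome production, nucleotide and polyamine synthesis and nutrient uptake. Of these, 23 were higher and 2 lower in YFP- against unstimulated samples (30.2% and 20.9% of all genes). The list median was 1.80 beside 0.14 for all genes, and 23 of 26 (against a background of 30.2% higher) is a count on a list whose kind of gene was already known to rise in these samples, so it is not independent evidence of direction. Pus7, a pseudouridine synthase, rose from 3.39 ± 1.01 to 17.9 ± 3.52 CPM (SD, n = 4; 2.43 on the log2 scale, limma adjusted p = 3.5e-06). Ppan, a ribosome assembly factor, rose from 31.4 ± 3.88 to 145 ± 18.8 CPM (2.20, limma adjusted p = 2.7e-07). The 2 that were lower were Ldha, which makes lactate (3865 ± 512 to 1837 ± 122 CPM, -1.07, limma adjusted p = 2.5e-05), and the cell cycle kinase Cdk4 (-0.28, limma adjusted p = 0.0456), whose call was lost under 5 of 13 alternatives, among them without each replicate label.

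In YFP+ against YFP- samples 7 of these 26 genes were higher and 0 lower (3.28% and 18.5% of all genes), with a median of 0.28 beside -0.19, while Myc itself was at a log2 difference of -0.77, not called. The count of 7 was 4 without label f2, 3 without m2, 4 without the filter, 11 under quantile normalization and 13 under trimmed-mean scaling. Srm, the spermidine synthase, was at 16.3 ± 4.22, 65.0 ± 2.92 and 127 ± 21.6 CPM (SD, n = 4) in unstimulated, YFP- and YFP+ samples, and its log2 difference between the last 2 groups was 0.95 (limma adjusted p = 0.00244). Tfrc, the transferrin receptor for iron uptake, was at 31.3 ± 3.29, 45.8 ± 1.94 and 87.4 ± 18.3 CPM, with a difference of 0.91 (limma adjusted p = 5.8e-04).

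**Figure D4:**
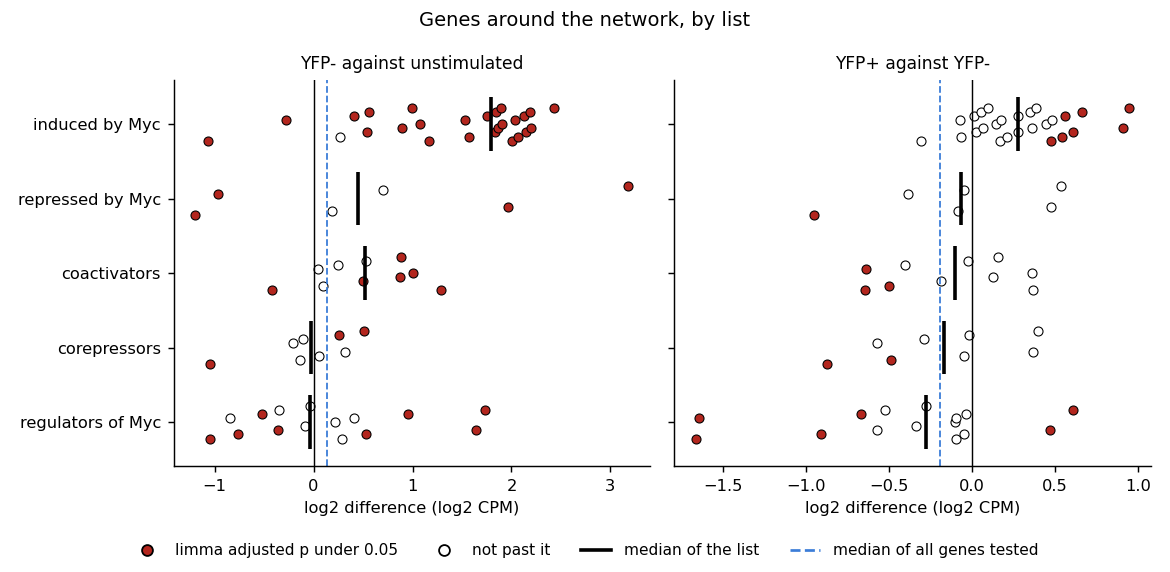
Log2 difference of every tested gene in 5 lists around the network, for YFP- against unstimulated (left) and YFP+ against YFP- (right). Points are genes, filled where called; thick bars are list medians and the dashed line the median of all genes tested. The genes described as induced by Myc have a median of 1.80 on the left and 0.28 on the right, above the dashed line in both panels.

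Most of the 6 genes described as repressed by Myc are inhibitors of cyclin-dependent kinases. In YFP- against unstimulated samples 2 of the 6 were higher and 2 lower (30.2% and 20.9% of all genes). Cdkn2b (p15) rose from 0.742 ± 0.219 to 6.60 ± 0.470 CPM (SD, n = 4; 3.18 on the log2 scale, limma adjusted p = 2.4e-07) and Cdkn1a (p21) from 98.7 ± 16.4 to 384 ± 56.0 CPM (1.96, limma adjusted p = 2.2e-07). Cdkn1b (p27) fell from 14.2 ± 2.45 to 6.34 ± 1.88 CPM (-1.20, limma adjusted p = 4.0e-04) and Cdkn2c (p18) from 20.6 ± 1.81 to 10.7 ± 2.16 CPM (-0.97, limma adjusted p = 3.0e-04). Only Cdkn1b was called in YFP+ against YFP- samples, at -0.95 (limma adjusted p = 0.00596), where 18.5% of all genes were lower. Without label f2 it was not called (limma adjusted p = 0.0509). In the groups in which Myc was higher than in unstimulated samples, p15 and p21 were thus higher and p27 and p18 lower. The others of the list were not called there.

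The genes most like a member across the 12 samples were sought for Myc, for Mlx as the called member other than Myc with the largest rise in YFP- samples, and for Mxi1 as that with the largest fall. By Pearson r of log2 CPM, a description over samples that share the 3 group means, Myc was closest to Hnrnpc, a binder of nascent RNA (0.986), Bcl2l1, which encodes the survival protein Bcl-xL (0.986), and Pwp1, a ribosome production factor (0.977). With the group means removed these values were 0.951, 0.943 and 0.908. Those of the genes named next fell further, to 0.784, 0.774 and 0.704 for Mlx and 0.791, 0.854 and 0.654 for Mxi1. Within a group the SD in log2 CPM was 0.25 to 0.79 for Myc and 0.06 to 0.12 for Mlx. The part of that spread and of the rRNA-like share in this contrast was not tested. Mlx was closest to Phlda1 (0.990), Far1, a peroxisomal reductase (0.988), and Wnt1, a secreted signalling protein (0.988). Mxi1 was closest to Ehmt2, the histone H3 methyltransferase G9a (0.995), Cant1, a nucleotidase (0.993), and Fam78a (0.992). Ehmt2 was at 60.8, 18.6 and 7.87 CPM on average in unstimulated, YFP- and YFP+ samples, and Wnt1 at 0.058, 9.84 and 33.2.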

How the data were processed

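RNA of 12 samples of mouse NK cells was made into cDNA with the SMARTer Ultra Low kit and sequenced in paired-end mode, per the labels' protocols. STAR 2.7.9a, featureCounts 2.0.3, Subread, bcl2fastq and the build GRCm38 are named in the submitters' processing notes. The deposited values, in 1 table, are moderated log2 CPM per the file headers, where the log2 is taken of reads plus a prior scaled by the library total. Of its 55774 lines, 287 repeats were dropped, and whole reads followed from the values for 100% of values within 0.01 of a whole number. That scaling takes no account of a few features filling a library. The rRNA-like share, here the sum of 359 features, is thus part of each total by which a member's reads are divided. Its part in the members' levels was not tested.

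Genes past a filter (log2 CPM over 0 in 4 or more samples) entered 1 fit of all 12 samples with a term for each group in limma 3.58.1, run in R 4.3.3 (lmFit, eBayes with an intensity trend), and a Benjamini-Hochberg adjusted p under 0.05 was a call. On simulated reads the fit called 87 of 98 genes changed by 1 on the log2 scale and 96 of 96 changed by 2 for YFP+ against unstimulated, among 12130 genes tested, with 6 unchanged genes called. For YFP+ against YFP- it called 86 of 98 and 96 of 96, with 13 unchanged genes. The simulation gave all genes the same dispersion and changed a small set of them, in YFP+ samples only. It held no difference in rRNA-like share between libraries, so these counts need not hold for the real libraries.

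Gene models, exon lengths and shared 50-base stretches are from GENCODE M21 on GRCm38, which held 99.4% of the identifiers, and promoter windows are from RefSeq, GRCm38.p6. Lengths are merged exons, so a level per length depends on which transcripts are used. Libraries of 32.1 to 54.2 M reads give floors that cover counting error only, since no molecular identifiers are named. Python 3.11.15 with pandas 2.3.3, numpy 2.4.6 and matplotlib 3.10.9 served for the rest.

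The members, lists and rules for naming genes were chosen with earlier results of these data known. Named are the 9 members, the lists of other network factors, corepressors and Mlx targets, for each other list the 2 called genes that rose most and the 2 that fell most in YFP- against unstimulated and in YFP+ against YFP-, and the 3 genes most like Myc, Mlx and Mxi1. Some genes that this rule names are not reported here, but stay in the counts of their lists. Alternatives were a replicate block, a fit of the 8 samples compared, 2 filters, a pseudocount of 1 CPM, quantile normalization, trimmed-mean scaling, voom weights, totals without rRNA-like features, and leaving out each replicate label.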

Additional observations from a re-analysis of the deposited data

Results flagged for a closer look

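Max in unstimulated samples was singled out because 1 sample lay far from the others. The m4 sample was at a log2 CPM of 4.87, against 5.95 to 6.05 in f2, m2 and m3, so its gap to the nearest of them was 0.921 of the whole range of the group. Of 39 sets of 4 values examined this was the only 1 past the limit, where chance gives about 1.95. The same sample had more of its reads on rRNA-like features (35.3%) than the rest of its group, and the part of that share in the level of Max was not tested.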

How the results depend on the processing

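Of 351 values of member differences under 13 alternatives, 332 kept their direction and their side of the threshold, 6 lost the call, 8 gained it and 5 changed sign, and 19 of the 27 differences kept both under all 13. The changes of sign all concern differences that were not called: Max in YFP+ against unstimulated samples was 0.0519 under trimmed-mean scaling and 0.0549 under voom weights and ran from -0.35 to 0.27 when each replicate label was left out, and Mycn in YFP+ against YFP- was 0.18 under quantile normalization and ran from -0.41 to 0.0238. The cause was not tested. The number of genes called in YFP+ against YFP- samples was 2691, fell to 1583 without the filter, where more features are tested, and ran from 1571 to 2178 when a label and so 3 samples were left out (1571 without m2, 1643 without m4). Members called ran from 6 to 8 of 9, stayed at 8, and ran from 4 to 6 over the alternatives for YFP- against unstimulated, YFP+ against unstimulated and YFP+ against YFP-. Over all genes, 6321 were called for YFP- against unstimulated in the main fit. That number ran from 4717 without label m4 to 7123 in the fit of the 8 samples compared. The log2 of Myc over the summed antagonists per length was -1.36, 2.26 and 2.91 on average in unstimulated, YFP- and YFP+ samples, and -1.98, 1.57 and 2.08 from CPM with no length.

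Under a replicate block, with the label as a term of the fit, limma gave 7, 8 and 6 members called in the same order of comparisons, the addition being Myc in YFP+ against YFP- (-0.77, limma adjusted p = 0.0459). The block changed no other call of a member. Over all genes it called 6682 for YFP- against unstimulated, where the main fit called 6321. Same-label samples correlated in their deviations from the group means at -0.059 to 0.10 for YFP- against unstimulated, -0.042 to 0.375 for YFP+ against unstimulated and 0.054 to 0.374 for YFP+ against YFP-. No comparison had every label above 0.1, so the pairing is not established. Depth limits Mxi1 most among the members, at 20 to 36 reads per YFP+ library.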

Other observations

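The E-box CACGTG was also counted in the promoter windows of genes outside the network, as a description with no test. Among the 8705 genes tested that have a window, 12.1% hold it. The share was 14.7% of 2693 genes higher in YFP- than in unstimulated samples, 9.98% of 1973 genes lower and 11.4% of 4039 genes not called. For YFP+ against YFP- it was 13.6% of 308 genes higher and 9.84% of 1718 genes lower. Of the 20 genes with a window among those described as induced by Myc, 7 (35.0%) hold it, as do 0 of 6 corepressor genes and 1 of 9 coactivator genes. Genes with no entry in the windows are not in these counts.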
